A study of Mus musculus with 36 samples.

Results

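The 10 genes described here mark where a cell stands between an epithelial and a mesenchymal state: Cdh1, Epcam, Grhl2, Cdh2, Vim, Zeb1, Zeb2, Snai1, Snai2 and Twist1. They were taken by name from the 37417 genes of the count table, and were chosen with earlier results of these data known. All 10 were read in 36 libraries from subcutaneous mouse tumours, as counts scaled in the usual way to the library's total over genes (CPM). Each of the 10 reached 1 CPM in at least 4 libraries.

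Epithelial cells hold on to their neighbours through E-cadherin, and in the epithelial-mesenchymal transition they lose these contacts and gain motility. Transcription factors of the ZEB, SNAIL and TWIST families drive the transition, in part by binding E-box motifs and silencing E-cadherin, whereas the grainyhead-like factor GRHL2 sustains the epithelial programme. Tumour cells often stop between both ends, and fibroblasts, macrophages and endothelial cells of a tumour also express vimentin and the ZEB factors, so a level in bulk tissue sums over cell types. In such data fewer cells of a type and less RNA per cell cannot be told apart.

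Per the labels, MC38 and PancO2 tumours grew under the skin of C57BL/6J mice and CT26 tumours in BALB/c mice, all wild type and 12 weeks old. Mice received 10 mg/kg of control IgG, anti-CTLA4 or anti-PD-1 into the peritoneum, which gave 9 labelled groups of 4 libraries. MC38 and CT26 are colon carcinoma lines and PancO2 is a pancreatic carcinoma line. Such lines are injected as cultured cells, and the host contributes its own stroma and immune cells. Each sample title ends in a number that occurs in 1 library and was taken to stand for 1 mouse. The p-values measure the spread between these libraries.

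The libraries fell into 3 expression classes that cross the labels. In 12 libraries the transcript annotated as H2-Ea-ps, an MHC class II alpha chain gene, was above 10 CPM (32.8 to 134 CPM). In 12 libraries ceruloplasmin, Cp, was above 1000 CPM (1389 to 2168 CPM). In the other 12, called neither, H2-Ea-ps did not exceed 0.0352 CPM and Cp was 255 to 611 CPM. Each class held libraries of all 3 labelled models: the H2-Ea-ps class had 4 labelled CT26, 4 labelled MC38 and 4 labelled PancO2, the Cp class 3, 4 and 5, and neither 5, 4 and 3. H2-Ea is a gene that C57BL/6J mice are known not to express and BALB/c mice to express, so 8 libraries of the H2-Ea-ps class carry model labels that go against this transcript. The 8 libraries labelled CT26 in the Cp class and in neither, which had at most 0.0845 CPM of it, go against it the other way, which makes 16 of 36. Whether labels and columns of the count table correspond was not tested, and if they do not, a comparison of labels is not one of the named models or antibodies. Because the classes were set by transcripts of the same libraries, differences between classes are described without a test.

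Depth ran from 7883106 to 41751023 counts per library. The library labelled PancO2 anti-PD-1 71, in the H2-Ea-ps class, stood apart. It had the lowest depth, 15.7% of its counts on mitochondrial genes against at most 4.35% in the other 35, and 70.1% of 15217 genes lay outside the range that the 11 remaining H2-Ea-ps libraries spanned. Of the 10 genes, 8 were outside that range, with Vim and Zeb1 inside. Slopes on marker lists and part of the class results are given with and without it. The values of label comparisons and interactions and the counts for further gene lists include it. Krt14, a keratin of basal skin cells, was above 1 CPM in 11 libraries, of which 4 were in the Cp class, 7 in neither and 0 in the H2-Ea-ps class.

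Promoter sequences from RefSeq (GRCm38.p6, 250 bases before to 50 after the transcript start) were on hand for 5 of the 10 genes: Epcam, Vim, Zeb2 with 4 starts, Snai1 and Twist1. Cdh1, Grhl2, Cdh2, Zeb1 and Snai2 had no entry. The letters CAGGTG, or CACCTG on the other strand, form the E-box that SNAIL and ZEB proteins are known to bind, and they are capitals in the promoters printed here. Those of Epcam and Snai1 are shown because they were the members' promoters that held this motif, and that of Twist1 because its transcript set the Cp class apart from both others by more than that of any other member.
Epcam, chr17:87635729-87636028, plus strand: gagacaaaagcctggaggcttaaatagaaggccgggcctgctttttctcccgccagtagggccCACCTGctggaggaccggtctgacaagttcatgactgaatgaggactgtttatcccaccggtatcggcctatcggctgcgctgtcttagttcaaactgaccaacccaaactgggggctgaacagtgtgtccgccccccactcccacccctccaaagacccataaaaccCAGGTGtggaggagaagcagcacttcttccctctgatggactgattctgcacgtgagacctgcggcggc
Snai1, chr2:167537945-167538244, plus strand: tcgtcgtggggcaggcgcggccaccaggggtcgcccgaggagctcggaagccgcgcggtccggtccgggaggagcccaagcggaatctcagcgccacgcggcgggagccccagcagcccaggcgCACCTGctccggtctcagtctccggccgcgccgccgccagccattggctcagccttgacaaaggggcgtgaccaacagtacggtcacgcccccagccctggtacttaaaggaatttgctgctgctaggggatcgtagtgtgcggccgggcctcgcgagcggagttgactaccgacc
Twist1, chr12:33957421-33957720, plus strand: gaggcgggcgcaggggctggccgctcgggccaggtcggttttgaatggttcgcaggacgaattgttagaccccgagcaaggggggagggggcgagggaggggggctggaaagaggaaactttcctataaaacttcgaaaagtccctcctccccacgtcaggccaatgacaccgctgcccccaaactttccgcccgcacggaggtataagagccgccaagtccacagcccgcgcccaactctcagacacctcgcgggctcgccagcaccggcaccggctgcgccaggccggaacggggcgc
In Epcam, an adhesion molecule of epithelia, the motifs began at positions -187 and -19 from the start, and in Snai1 at -126. The motif was in 20.2% of all 32851 promoters of that length, and 2 of the members' 8 promoters is close to that share. The E-box CATATG, which TWIST proteins are known to prefer, and the grainyhead site AACCGGTT were in 0 of the 8 and in 3.92% and 0.146% of all promoters. Any CANNTG, a pattern that contains both E-boxes, was in 2 of the 8 and in 72.3% of all promoters. These matches describe letters in a window and nothing more.

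**Figure D1:**
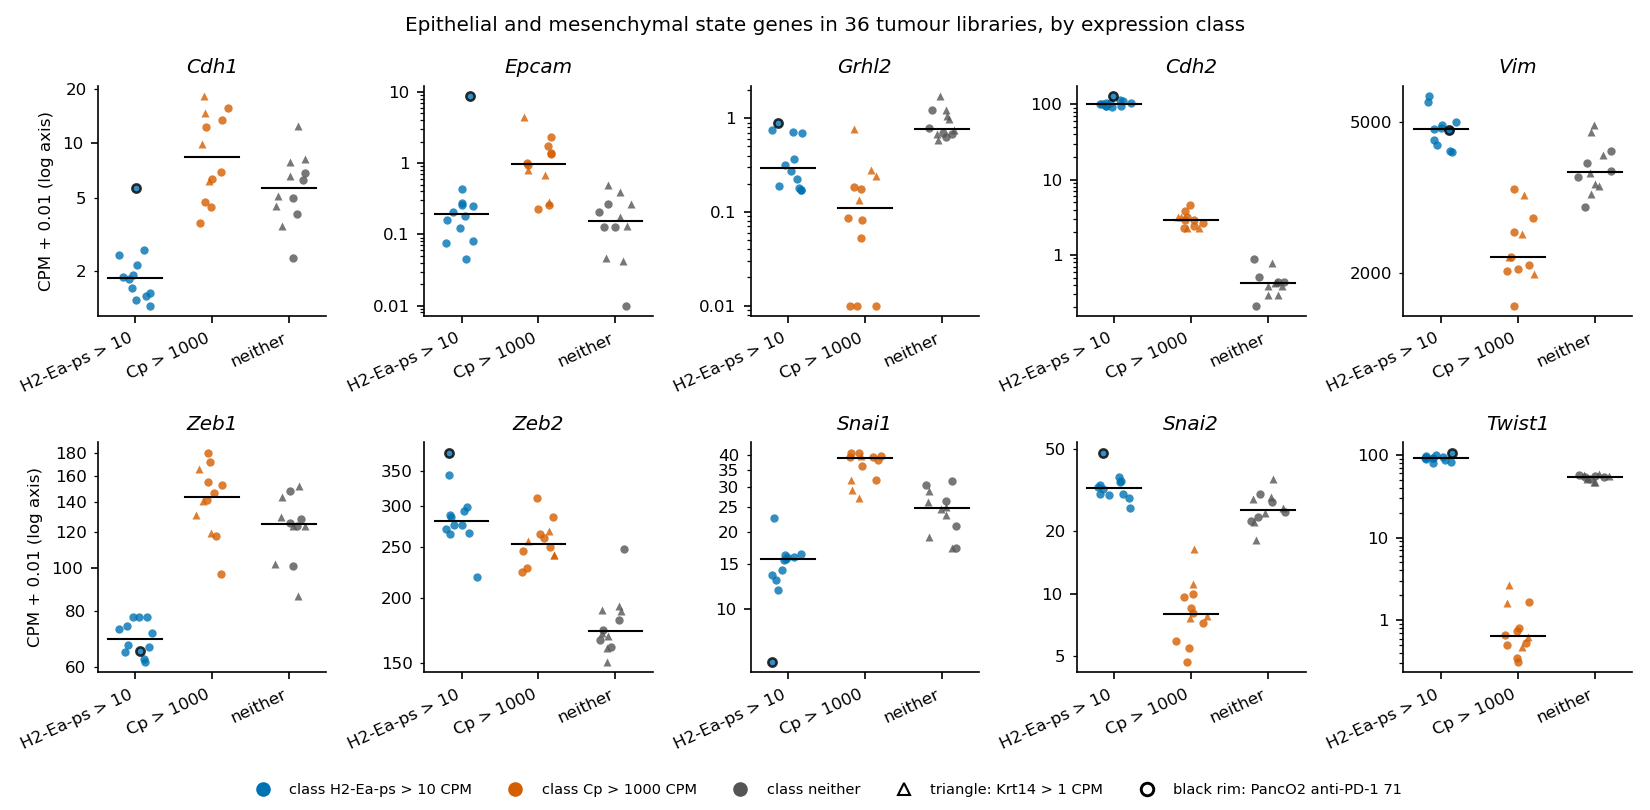
Level of each of the 10 genes in 36 libraries, in CPM plus 0.01 on a log axis, by expression class; each point is a library, the bar is the median of 12, triangles have Krt14 above 1 CPM and the black rim marks PancO2 anti-PD-1 71. Cdh2 and Twist1 form 3 separate bands, while the classes overlap in Zeb2, Epcam and Grhl2.

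Among the epithelial members, Cdh1, which encodes E-cadherin, was low throughout. In the H2-Ea-ps class it ran from 1.27 to 5.71 CPM with a median of 1.80, in the Cp class from 3.62 to 18.1 CPM with a median of 8.44, and in neither from 2.32 to 12.4 CPM with a median of 5.70. The highest value of the H2-Ea-ps class was the library labelled PancO2 anti-PD-1 71. Without it the class ended at 2.58 CPM, below every library of the Cp class. The Cp class and neither overlapped.

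Epcam was near the detection limit in most libraries. It ran from 0.216 to 4.38 CPM in the Cp class (median 0.969, 5 to 156 counts), from 0.0355 to 8.63 CPM in the H2-Ea-ps class (median 0.182) and from 0 to 0.475 CPM in neither (median 0.143). The 8.63 CPM was again PancO2 anti-PD-1 71, with 68 counts, and the other 11 libraries of its class had at most 0.424 CPM. The 1 library without a count, labelled CT26 anti-PD-1 41, allowed up to 0.106 CPM at 3 counts. All 3 classes overlapped.

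Grhl2, the epithelial transcription factor, had another order, with its highest median in neither. It ran there from 0.569 to 1.70 CPM (median 0.762), against 0.162 to 0.888 CPM in the H2-Ea-ps class (median 0.282) and 0 to 0.757 CPM in the Cp class (median 0.100). In the Cp class 3 libraries had no count, which allowed up to 0.104, 0.149 and 0.105 CPM. The class with the highest Cdh1 and Epcam medians thus had the lowest Grhl2 median. An antisense transcript, Gm16136, shares 169 exonic bases with Grhl2, and at these counts its reads cannot be told apart where strand was not used.

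Cdh2, which encodes N-cadherin, the cadherin of neural and mesenchymal cells, separated all 3 classes. It ran from 93.6 to 128 CPM in the H2-Ea-ps class (median 103), from 2.23 to 4.60 CPM in the Cp class (median 2.90) and from 0.202 to 0.880 CPM in neither (median 0.416). No library lay between the bands. The median of the H2-Ea-ps class was 35.3 times that of the Cp class and 247 times that of neither.

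Vim, which encodes the intermediate filament protein vimentin, was the most abundant of the 10 per exon length in every class. Its level was 4163 to 5820 CPM in the H2-Ea-ps class (median 4775), 2984 to 4903 CPM in neither (median 3685) and 1644 to 3335 CPM in the Cp class (median 2207). Every library of the H2-Ea-ps class was above every library of the Cp class, by 2.16-fold at the medians, and neither overlapped with both.

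The paired ZEB repressors did not follow each other. Zeb1 was lowest in the H2-Ea-ps class at 61.7 to 77.9 CPM (median 69.5), below all libraries of neither at 86.3 to 152 CPM (median 125) and of the Cp class at 96.8 to 181 CPM (median 144). Zeb2 had its highest median in the H2-Ea-ps class, 281 CPM (219 to 380 CPM), then the Cp class at 253 CPM (224 to 311 CPM) and neither at 172 CPM (151 to 248 CPM), and all 3 classes overlapped. Antisense Zeb2os shares 653 of the 19942 exonic bases of Zeb2, and Gm10125 shares 198 of the 10266 of Zeb1. That part of each level is uncertain without strand.

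The SNAIL factors ran in opposite orders. Snai1 was highest in the Cp class at 27.1 to 40.7 CPM (median 38.7), followed by neither at 17.3 to 31.5 CPM (median 24.7) and the H2-Ea-ps class at 6.22 to 22.7 CPM (median 15.6). Snai2, which encodes SLUG, was highest in the H2-Ea-ps class at 25.9 to 48.2 CPM (median 32.5) and in neither at 18.1 to 35.97 CPM (median 25.4), and lowest in the Cp class at 4.65 to 16.4 CPM (median 7.91). For both genes the H2-Ea-ps and Cp classes did not overlap. The lowest Snai1 and the highest Snai2 of the H2-Ea-ps class were both in PancO2 anti-PD-1 71.

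Twist1, a basic helix-loop-helix factor of mesoderm and neural crest, was nearly absent from the Cp class. It ran from 0.304 to 2.64 CPM there (median 0.636, 4 to 94 counts), from 47.5 to 58.8 CPM in neither (median 53.8) and from 80.3 to 106 CPM in the H2-Ea-ps class (median 91.7). The 3 bands did not overlap. Against the Cp class the medians were 144 times higher in the H2-Ea-ps class and 84.7 times higher in neither, and the first was 1.71 times the second.

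Between the H2-Ea-ps and Cp classes 6 of the 10 genes did not overlap, with Cdh2, Vim, Snai2 and Twist1 higher and Zeb1 and Snai1 lower in the H2-Ea-ps class, beside 31% of 15217 genes of at least 1 CPM in 4 libraries. Without PancO2 anti-PD-1 71 Cdh1 joined them, beside 39.5% of genes. Because the members were chosen with earlier results of these data known, a count above the share is a description and no support. Between the H2-Ea-ps class and neither 3 did not overlap (Cdh2 and Twist1 higher, Zeb1 lower), beside 26.2% of genes, and between neither and the Cp class also 3 (Snai2 and Twist1 higher, Cdh2 lower in neither), beside 30.2%. The last 2 counts are close to the share over all genes. Without PancO2 anti-PD-1 71 the count between the H2-Ea-ps class and neither stayed at 3, beside 34% of genes. Leaving out the 11 libraries with Krt14 above 1 CPM raised the count between neither and the Cp class to 5, adding Grhl2 and Snai1, beside 39.2%.

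Set per kilobase of exon, so that genes can be compared, the members also changed rank. Vim led in every class, at medians of 1007, 465 and 777 CPM per kb in the H2-Ea-ps class, the Cp class and neither. Twist1 came next in the H2-Ea-ps class (56.4 CPM per kb) and in neither (33.0 CPM per kb), each above the range of the gene ranked below it. In the Cp class Snai1 came next, at 23.9 CPM per kb, and its range overlapped with that of Zeb1. In the H2-Ea-ps class the ranges of Snai2, Zeb2 and Cdh2 overlapped at medians of 16.1, 14.1 and 12.7 CPM per kb.

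The ratio of both cadherins set the H2-Ea-ps class apart, while the Cp class and neither overlapped. Cdh2 over Cdh1, per kb, was 12.7 to 43.6 in the H2-Ea-ps class (median 33.96), 0.0892 to 0.722 in the Cp class (median 0.185) and 0.0174 to 0.215 in neither (median 0.0354). It was above 1 in 12 of 12 libraries of the H2-Ea-ps class and in 0 of the other 24. The lowest ratio of the H2-Ea-ps class was PancO2 anti-PD-1 71, and without it the class began at 22.01. Snai2 over Snai1, per kb, was above 1 in 11 of 12 libraries of the H2-Ea-ps class, 4 of neither and 0 of the Cp class.

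**Figure D2:**
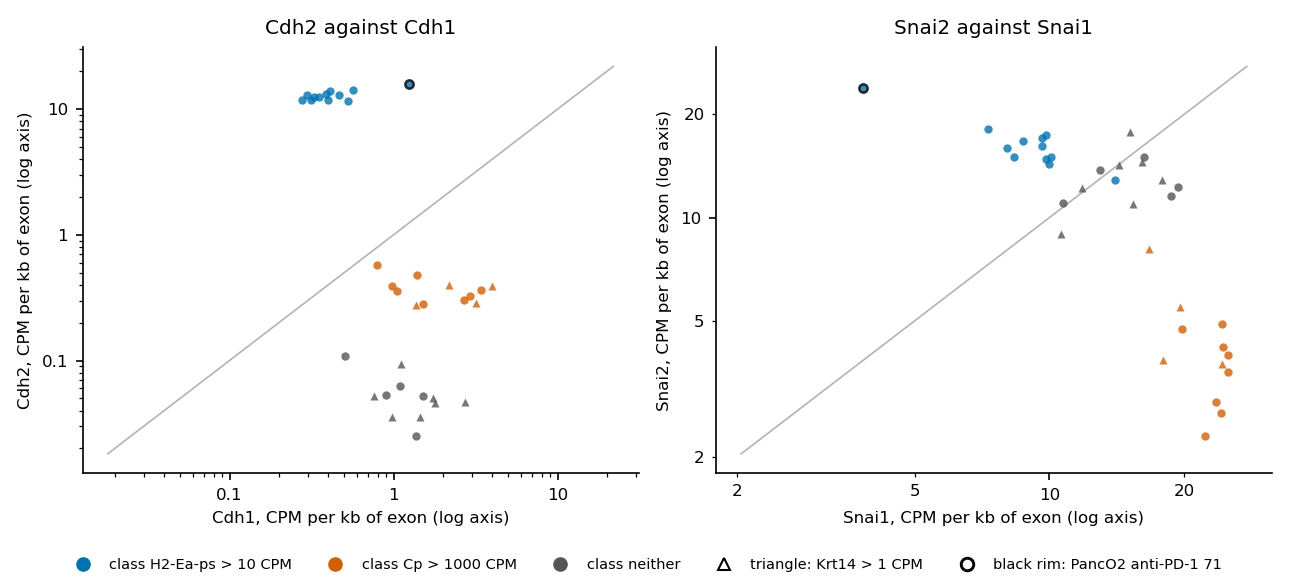
Cdh2 against Cdh1 (left) and Snai2 against Snai1 (right) in 36 libraries, in CPM per kb of exon on log axes; the grey line marks equal levels, and colours and marks are as in the plot by class. All 12 libraries of the H2-Ea-ps class lie above the line for the cadherins, and all 12 of the Cp class lie below it in both panels.

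The labels, whose match to the columns is in doubt as given above, did not separate the members. Within a labelled group the classes were mixed, and 8 of the 9 groups held all 3. Cdh2 in the 4 libraries labelled CT26 IgG ran from 0.374 to 106 CPM (27.9 ± 51.9, SD, n = 4), and in those labelled MC38 IgG from 0.423 to 104 CPM (50.5 ± 56.8, SD, n = 4). Twist1 in the libraries labelled PancO2 IgG ran from 2.64 to 81.4 CPM (49.5 ± 33.3, SD, n = 4) and in those labelled PancO2 anti-PD-1 from 0.734 to 106 CPM (47.1 ± 54.5, SD, n = 4).

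**Figure D3:**
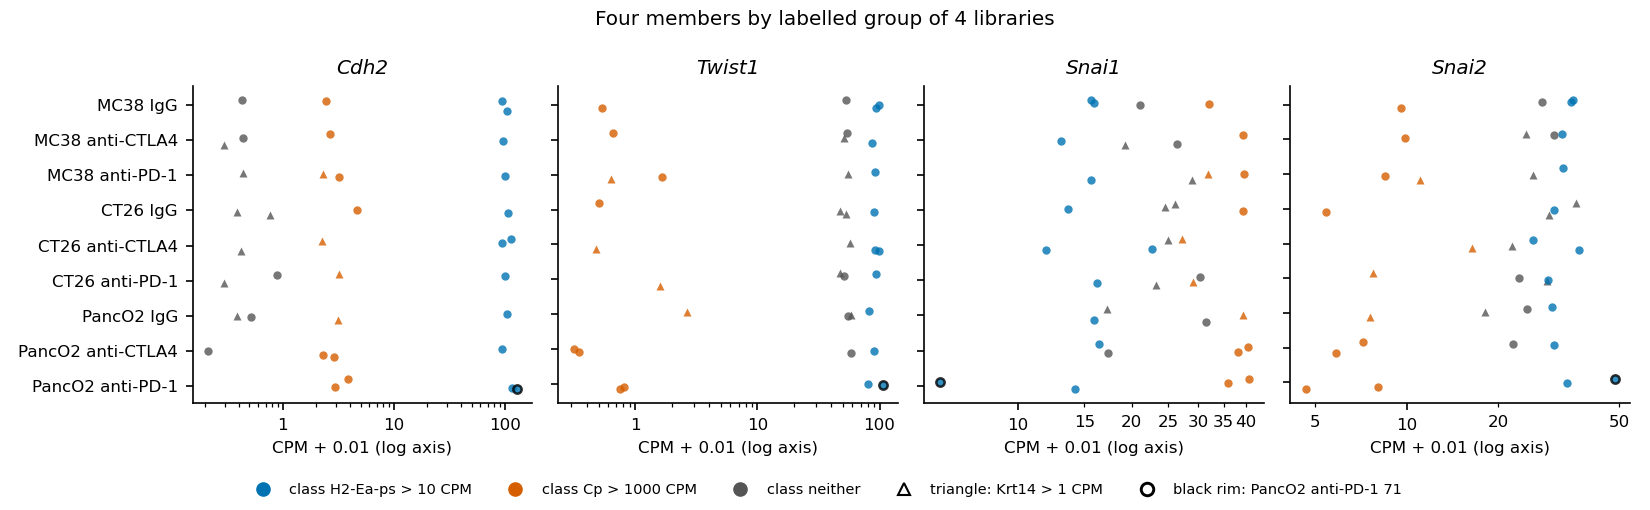
Cdh2, Twist1, Snai1 and Snai2 in CPM plus 0.01 on a log axis, in the 9 labelled groups of 4 libraries, coloured by expression class; triangles have Krt14 above 1 CPM and the black rim marks PancO2 anti-PD-1 71. In Cdh2 and Twist1 the points line up in vertical bands by colour, and each labelled group spans several bands.

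Labelled models were compared among libraries of the IgG groups, and each antibody with IgG within a labelled model, with edgeR's quasi-likelihood test. In the 9 comparisons 0 genes passed an adjusted p of 0.05, a background of 0%, and so did 0 of the 9 or 10 members tested. At an unadjusted p under 0.05 there were 25 to 912 genes, with 0 members among them. limma-voom called 0 genes in each of the 9 (19 to 462 genes at an unadjusted p under 0.05), and DESeq2 called 0 to 9 genes and 0 members. The fold changes had wide errors: Twist1 differed between the labels PancO2 and MC38 by a log2 fold change of -0.36 (SE 1.36) and Cdh2 by -0.94 (SE 2.14). Zeb1 was less spread, at 0.04 (SE 0.31). For anti-PD-1 against IgG the libraries labelled PancO2 gave a log2 fold change of 1.25 (SE 2.02) for Cdh2 and -0.25 (SE 0.66) for Cdh1. Errors of this size leave large differences possible in either direction.

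The 6 interactions, which ask whether an antibody changed a gene differently in 2 labelled models, also called 0 genes, a background of 0%, and 0 members (57 to 1235 genes and 0 members at an unadjusted p under 0.05, and 0 genes with limma-voom). With edgeR, a term for the 3 classes left 0 genes and 0 members called in every comparison and interaction. The smallest adjusted p of a member in the 9 comparisons was then 0.524, for the labels PancO2 and CT26.

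Genes of the same pathways, from lists of 152 genes in all, were read beside the members. These lists were also chosen with earlier results of these data known, so their counts are descriptions. Of 27 epithelial junction, keratin and splicing genes 15 reached 1 CPM in 4 libraries, and between the H2-Ea-ps and Cp classes 1 was higher and 7 were lower without overlap, beside 31% of all genes. Krt8, a keratin of simple epithelia, had medians of 0.409 CPM in the H2-Ea-ps class, 435 in the Cp class and 141 in neither. Krt18, its usual partner, had 10.8, 285 and 0.346 CPM. Krt19 had 0.135, 21.3 and 0.206 CPM, and Jup, which encodes the junction protein plakoglobin, 26.96, 253 and 103 CPM. The Cp class had the highest median for 9 of the 15 genes, neither for 5 and the H2-Ea-ps class for 1. Other genes of the list, named after their values were seen, ran differently. Muc1 (medians 3.97, 1.60 and 4.04 CPM) and Pkp3 (7.92, 4.71 and 12.4 CPM) were lowest in the Cp class. Spint1 was highest in neither (0.156, 13.8 and 23.4 CPM) and Grhl1 in the H2-Ea-ps class (2.26, 0.879 and 0.550 CPM).

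Of 16 further transcription factors 15 were read, and 2 were higher and 6 lower without overlap in the H2-Ea-ps class than in the Cp class, beside 31% of all genes. Hmga2, a chromatin protein of embryonic and tumour cells, had medians of 880, 2.37 and 318 CPM in the H2-Ea-ps class, the Cp class and neither. Prrx1, a homeobox factor of limb and connective tissue, had 436, 5.04 and 175 CPM. Both had the class order of Twist1. Foxc2 had 3.94, 25.3 and 19.8 CPM and Sox9 43.7, 128 and 158 CPM, with the H2-Ea-ps class lowest.

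Of 22 mesenchymal adhesion and matrix genes, 3 were higher and 7 lower without overlap in the H2-Ea-ps class than in the Cp class, beside 31% of all genes, and 4 were higher and 7 lower than in neither, beside 26.2%. Fn1, which encodes fibronectin, had medians of 3847, 9876 and 3767 CPM, and Bgn, which encodes the proteoglycan biglycan, 96.1, 583 and 1446 CPM. Vcan, which encodes versican, had 26.1, 8.75 and 694 CPM. The class with the highest Cdh2, Vim and Twist1 was thus the lowest of the 3 for Bgn. Over the 22 genes the H2-Ea-ps class had the highest median for 10 and the lowest for 8. The Cp class had the highest for 5 and neither for 7. Spp1 (medians 4440, 2897 and 1245 CPM) and Tnc (136, 81.8 and 33.0 CPM) were highest in the H2-Ea-ps class. Of 17 genes of the inducing signals, 1 was higher and 6 were lower without overlap in the H2-Ea-ps class than in the Cp class, again beside 31%. Egfr had 4.06, 263 and 117 CPM, the TGF-beta ligand gene Tgfb3 19.1, 129 and 47.3 CPM, and Wnt5a 3.63, 1.55 and 180 CPM.

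Among marker lists of other cell types, fibroblast and macrophage markers were without overlap more often than all genes only in some pairs of classes. The summed level of 10 fibroblast markers was 1983 to 4006 CPM in the H2-Ea-ps class, 3345 to 6606 CPM in the Cp class and 5720 to 12990 CPM in neither. Of these 10 genes 1 was higher and 4 were lower without overlap in the H2-Ea-ps class than in the Cp class, beside 31% of all genes, and 1 higher and 5 lower than in neither, beside 26.2%. The marker with the largest median was Col1a2 in the H2-Ea-ps class (1400 CPM), Dcn in the Cp class (2313 CPM) and Col3a1 in neither (4232 CPM). The fibroblast sum thus rests on different genes in each class, and which cells made them was not tested. The sum of 10 macrophage markers was 1279 to 2491, 1676 to 3231 and 2397 to 4173 CPM, and of these 10 genes 1 was higher and 1 lower without overlap in the H2-Ea-ps class than in the Cp class, and 5 were lower than in neither, beside the same shares of all genes. Between neither and the Cp class, 1 fibroblast marker was higher and 2 were lower without overlap in neither, beside 30.2% of all genes. Of the macrophage markers 2 were higher and 0 lower there. The macrophage markers between the H2-Ea-ps and Cp classes, and both lists between neither and the Cp class, thus did not exceed the share over all genes. Of 9 endothelial markers 0 were without overlap between any classes, with sums of 127 to 267, 93.0 to 231 and 135 to 250 CPM. The part of these cell types in the class differences was not tested.

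Skin could enter a subcutaneous tumour sample, and its keratinocytes express Cdh1, Epcam and Grhl2. The sum of 11 keratinocyte markers was 2.88 to 29.8 CPM in the H2-Ea-ps class. It was 6.87 to 612 CPM in the Cp class and 3.66 to 98.1 CPM in neither. In the H2-Ea-ps class, the Cp class and neither its medians were 3.54, 9.80 and 6.87 CPM. Beside them Krt10 had medians of 2.97, 4.27 and 4.43 CPM and Trp63 0.214, 4.74 and 1.65 CPM. In the Cp class Krt14 and Krt5 had medians of only 0.115 and 0.243 CPM. In many libraries the sum thus rests largely on Krt10 and Trp63, and whether it tracks skin there was not tested. Lor, a marker of cornified skin, was at 0 in every library of the H2-Ea-ps class. The 29.8 CPM was PancO2 anti-PD-1 71, whose Krt14 of 0.761 CPM was below the cut of 1 CPM. In that library Krtdap was 6.47, Trp63 5.58 and Dsc3 5.20 CPM, against class medians of 0.0570, 0.214 and 0.0699 CPM. Krt5 and Krt1 were at 0 in it. Whether skin entered this library was not tested. The library labelled PancO2 IgG 48 had the most Krt14, at 209.8 CPM. It also had the highest level in the Cp class of Cdh1 (18.1 CPM), Epcam (4.38 CPM), Grhl2 (0.757 CPM) and Twist1 (2.64 CPM). Without the 4 libraries of Krt14 above 1 CPM the other 8 of the Cp class had Cdh1 from 3.62 to 15.7 CPM and Epcam from 0.216 to 2.35 CPM, and Grhl2 ended at 0.173 CPM. The Cdh1 median of the Cp class was 12.3 CPM in the 4 libraries and 6.65 CPM in the 8, whereas that of Epcam was 0.722 CPM and 1.18 CPM. In neither, the 7 libraries with Krt14 above 1 CPM had a Cdh1 median of 6.64 CPM and the other 5 one of 5.02 CPM. Krt14 was at least 0.4575 CPM in every library of neither (median 1.30), while Krt5 and Krt1 had medians of 0. The cut of 1 CPM therefore does not set skin apart clearly in this class. MC38 anti-PD-1 19, CT26 anti-PD-1 40 and CT26 IgG 24 passed it with keratinocyte sums of 7.05, 6.38 and 8.45 CPM. The 5 libraries below it had 3.66 to 6.69 CPM. The sums of 8 muscle markers (3.82 to 172, 7.78 to 775 and 12.0 to 119 CPM), 6 adipocyte markers (0.215 to 20.8, 0.822 to 46.05 and 0.573 to 11.8 CPM) and 5 Schwann cell markers (6.86 to 47.6, 14.6 to 28.6 and 8.92 to 14.7 CPM) also varied between libraries.

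To ask which members moved with such marker lists inside the classes, counts were regressed on the log2 sum of a list, with a term for class. The slope is the log2 change of the gene per log2 unit of the sum. With fibroblast markers Zeb1 rose by 0.45 (SE 0.09, edgeR adjusted p = 0.00372), beside 2.09% of genes that rose and 1.34% that fell. Without PancO2 anti-PD-1 71 the Zeb1 slope was 0.46 (SE 0.09, edgeR adjusted p = 0.00164), and Epcam then passed as well, at 1.91 (SE 0.59, edgeR adjusted p = 0.0394). With that library Epcam had a slope of -0.54 (SE 1.04). Using the mean of the log2 markers in place of their sum, 0 members passed (2 at an unadjusted p under 0.05).

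Beside Zeb1, 9 of the 22 mesenchymal genes rose with fibroblast markers and 1 fell. Lox, which encodes a collagen cross-linking enzyme, rose by 1.44 (SE 0.25), Tnc, which encodes tenascin C, by 1.38 (SE 0.35) and Acta2, which encodes smooth muscle actin, by 1.33 (SE 0.18). Of the 19 epithelial genes tested 0 passed.

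With macrophage markers 0 of the 10 members passed, beside 1.68% of genes that rose and 0.625% that fell, and Vim alone had an unadjusted p under 0.05, at a slope of -0.34 (SE 0.14, edgeR adjusted p = 0.223). limma-voom also called 0 members (2 at an unadjusted p under 0.05).

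With endothelial markers Cdh1 fell by 1.05 on the log2 scale (slope -1.05, SE 0.31, edgeR adjusted p = 0.0243) and Zeb1 rose by 0.30 (SE 0.09, edgeR adjusted p = 0.0325), beside 4.93% of genes that rose and 8.66% that fell. Without PancO2 anti-PD-1 71 the Cdh1 slope was -0.82 (SE 0.32, edgeR adjusted p = 0.0767) and no longer passed, and Zeb1 kept a slope of 0.33 (SE 0.10, edgeR adjusted p = 0.0202). In neither alone edgeR called 0 genes (1208 at an unadjusted p under 0.05), and the slopes of Cdh1 and Zeb1 were both -0.02. Of the epithelial list Krt7, Spint1 and Muc1 fell and Jup rose.

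With keratinocyte markers 4 members rose, beside 7.19% of genes that rose and 0.858% that fell: Epcam by 0.73 (SE 0.15, edgeR adjusted p = 0.00372), Grhl2 by 0.37 (SE 0.09, edgeR adjusted p = 0.00937), Cdh1 by 0.24 (SE 0.06, edgeR adjusted p = 0.0138) and Twist1 by 0.14 (SE 0.04, edgeR adjusted p = 0.0389). This rested on PancO2 anti-PD-1 71. Without it 0 members passed in edgeR (4 at an unadjusted p under 0.05), the smallest adjusted p being 0.122 for Grhl2, and the genes called fell from 1313 to 62, while the 4 slopes stayed above 0 (Epcam 0.32, Grhl2 0.34, Cdh1 0.19, Twist1 0.14). In the H2-Ea-ps class alone, which holds that library, 6 of 9 members passed, with Cdh1, Snai2, Cdh2, Zeb2 and Twist1 rising and Snai1 falling, as did 8060 of 16253 genes.

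**Figure D4:**
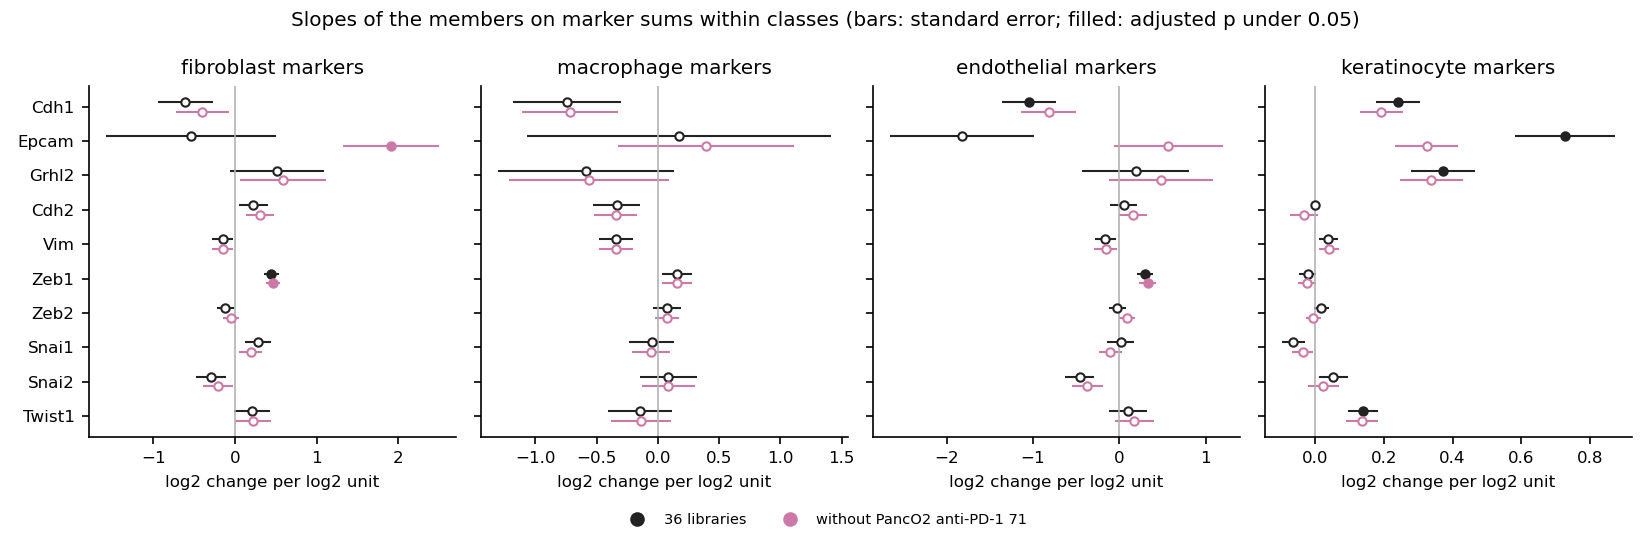
Slopes of the 10 genes on the log2 sums of 4 marker lists, with a term for class, in 36 libraries (black) and without PancO2 anti-PD-1 71 (pink); bars are 1 standard error and filled points passed an adjusted p of 0.05. Zeb1 was filled in both fits for fibroblast and endothelial markers, and Epcam moved most when the library was left out.

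ZEB1 is known as a repressor of the gene for E-cadherin, and the Cdh1 slope on Zeb1 was read inside the classes. This relation was chosen after the values of the same libraries were seen. Its adjusted p covers the genes tested and not the choice of Zeb1 as the covariate, so the fit describes these libraries and is no independent test of the relation. With Zeb1 as the covariate Cdh1 fell by 1.88 per log2 unit (slope -1.88, SE 0.44, edgeR adjusted p = 0.00646), and Vim fell by 0.52 (slope -0.52, SE 0.17, edgeR adjusted p = 0.0496), beside 3.42% of genes that rose and 5.04% that fell. Without PancO2 anti-PD-1 71 the slopes were -1.74 (SE 0.39) for Cdh1 and -0.52 (SE 0.17) for Vim, and both passed. Adding terms for the fibroblast and endothelial sums, with which Zeb1 also moved, gave -2.27 (SE 0.62, edgeR adjusted p = 0.0406) for Cdh1, while Vim at -0.75 (SE 0.25, edgeR adjusted p = 0.0978) no longer passed.

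Class by class, the Cdh1 slope on Zeb1 was -1.82 (SE 0.47, edgeR adjusted p = 0.0324) in neither, -1.97 (SE 0.74, edgeR adjusted p = 0.0902) in the Cp class and -1.84 (SE 1.56, edgeR adjusted p = 0.898) in the H2-Ea-ps class, where Zeb1 spanned only 0.33 on the log2 scale against 0.81 and 0.90 in neither and the Cp class. In neither 2 of 8 members passed, Cdh1 falling and 1 other rising, and 6 had an unadjusted p under 0.05. There 1226 of 16346 genes passed. In the Cp class 0 of 8 members passed, beside 2501 of 16594 genes, and in the H2-Ea-ps class 0 of 8, beside 0 of 15365. Whether the slopes differed between classes was not tested. Across classes the pair did not keep this order, since the H2-Ea-ps class had both the lowest Zeb1 and the lowest Cdh1 median. Of the 19 epithelial genes tested Krt19, Spint1 and Muc1 fell with Zeb1 and 0 rose. Endothelial markers (5 of 9) and fibroblast markers (4 of 10) also rose with Zeb1.

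**Figure D5:**
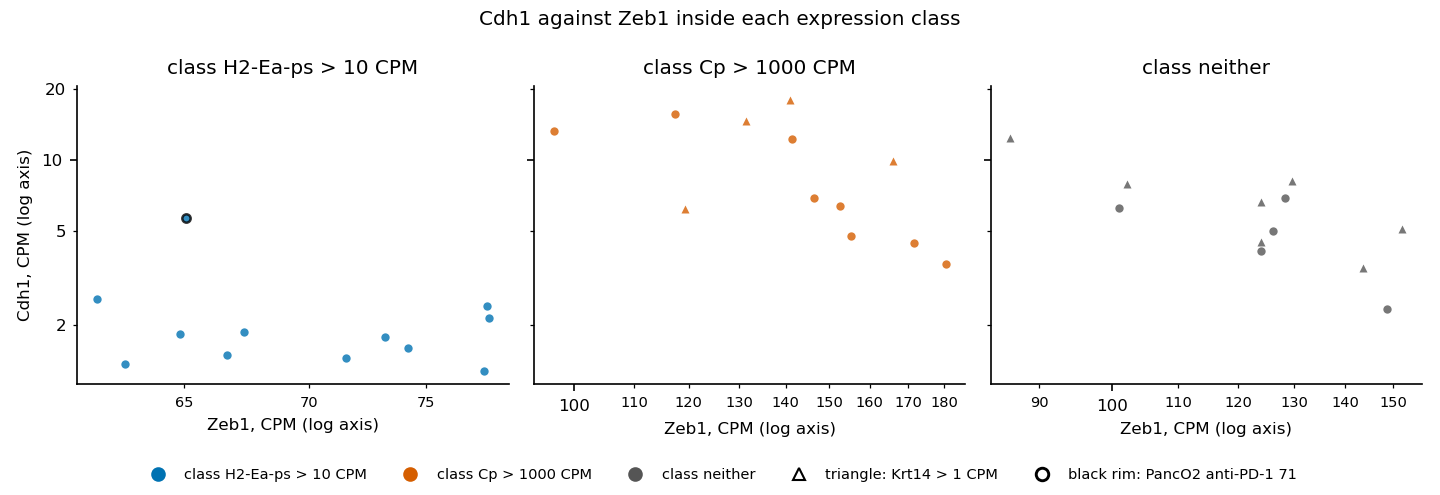
Cdh1 against Zeb1 in CPM on log axes, in each of the 3 expression classes of 12 libraries; triangles have Krt14 above 1 CPM and the black rim marks PancO2 anti-PD-1 71. Points fall from left to right in the Cp class and in neither, while in the H2-Ea-ps class Zeb1 covers a short range of 61.7 to 77.9 CPM.

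The members varied together only in part. Over the 35 libraries other than PancO2 anti-PD-1 71, with log2 values centred within class, Cdh1 and Zeb1 had a Pearson r of -0.62, Cdh2 and Zeb1 0.51, Cdh2 and Snai1 0.46 and Cdh1 and Vim 0.45. Cdh1 and Epcam had 0.01, Snai1 and Snai2 -0.21 and Zeb1 and Zeb2 0.35. These values describe libraries that share depth and tissue makeup and were not tested. With all 36 libraries Cdh1 and Epcam had 0.31 and Epcam and Snai1 went from 0.09 to -0.45, so 1 library set those values.

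The genes most like each member were named by the same measure over 35 libraries. Twist1 was closest to Prrx1 (r = 0.85), Col1a2 (0.81), a collagen chain gene, and Hspb8 (0.78). Over these libraries Twist1 spanned 8.68-fold in the Cp class, at 4 to 94 counts. It spanned 1.24-fold in neither and 1.24-fold in the H2-Ea-ps class. The Twist1 values thus draw mostly on libraries with few Twist1 counts, and r was not computed class by class. Zeb1 was closest to Wdpcp (0.87), Piezo2 (0.86) and Stxbp4 (0.86), Zeb2 to Nf1 (0.83), Nbeal1 (0.81) and Dstyk (0.81), and Cdh1 to Procr (0.78), Ggct (0.76) and Mapkapk3 (0.75). Vim was closest to S100a10 (0.76), Anxa2 (0.75) and Myadm (0.74), and Epcam to 1500015O10Rik (0.79), Podxl2 (0.77) and Glrx2 (0.75). For Cdh2 these were Parva (0.70), Ctif (0.69) and Sema3a (0.68), and for Grhl2 S100a14 (0.65), Mfhas1 (0.63) and Irx2 (0.62). Snai1 was closest to Dpm1 (0.65), Fam189b (0.65) and Crip2 (0.64), and Snai2 to Gpr85 (0.68), Rcc2 (0.67) and Nup50 (0.67). With the library left out put back, 7 of these 30 values fell by over 1.5 times: Dpm1 to -0.19, Rcc2 to 0.22, 1500015O10Rik to 0.31, Nup50 to 0.32, Dstyk to 0.35, Mfhas1 to 0.38 and Stxbp4 to 0.39. Prrx1 had 0.85 with Twist1 in both.

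The genes lie on 7 chromosomes of GRCm38. Cdh1 is on chromosome 8 (106603351 to 106670246), Epcam on 17 (87635979 to 87651129), Grhl2 on 15 (37233036 to 37363569), Snai2 on 16 (14705852 to 14709385) and Twist1 on 12 (33957671 to 33959829). Vim (13573927 to 13582826), Zeb2 (44983632 to 45117395) and Snai1 (167538195 to 167542814) are on chromosome 2, and Cdh2 (16588877 to 16809246) and Zeb1 (5591860 to 5775467) on 18. All are annotated as protein coding, and the levels sum over their exons, from 1621 exonic bases in Snai1 to 19942 in Zeb2.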

How the data were processed

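RNA of 36 tumours was sequenced from poly-A selected libraries, made per the labels with the Illumina TruSeq V2 kit, whereas the study's methods for a mutation analysis name a KAPA stranded kit. The deposited values are unnormalized read counts for Ensembl genes, made by the authors with TopHat, Bowtie and HTSeq on GRCm38/mm10 (FastQC 0.11.5, Bowtie2 and HTSeq 07.2 in the submitters' processing notes). The strand setting of the counting and the Ensembl release were not given in the sources used here. Replicates were not pooled.

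The 5 summary lines, 44.8% to 86.5% of listed reads per library, were left out of totals and tests, and CPM used the remaining total. Symbols were found for 32608 of 37417 identifiers. Depth was 7883106 to 41751023 counts, and the limit for 0 counts was 3 counts of the total, for counting error only. Groups came from the labels and classes from H2-Ea-ps and Cp.

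Tests used edgeR 4.0.16 in R 4.3.3 (filterByExpr, TMM, robust quasi-likelihood), two-sided, with Benjamini-Hochberg adjustment over all genes tested. Model comparisons used 12 IgG libraries, antibody comparisons the 12 of a model, and interactions and slopes all 36. Genes of a marker list, or Zeb1, were left out of the slopes on them. Marker sums had 0.5 CPM added. Alternatives were DESeq2 1.42.0, limma-voom (limma 3.58.1), other size factors, no filter, a class term, 84 refits without 1 library, and those in the closing section. The code was tested on simulated data. Figures were drawn with matplotlib 3.10.9.

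The members and lists were chosen with earlier results of these data known. Flg, of the keratinocyte list, was not matched in the table. Named genes were the 10 members, H2-Ea-ps, Cp, Krt14, up to 6 genes per list and comparison with the largest called change or non-overlapping ratio, and the 3 nearest genes of each member. The slope on Zeb1, its alternatives and the ratios between members were chosen after the values were seen.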

Additional observations from a re-analysis of the deposited data

Results flagged for a closer look

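Each of the 10 genes was examined in each of the 9 labelled groups of 4 libraries for a library far from the other 3. Of 90 such sets 10 stood out, where chance gives about 1 in 20, or 4.5. In 9 of the 10 the library was the only one of its expression class in its labelled group. The chance figure takes the 4 libraries of a group as alike, which groups of mixed classes are not, so no excess is read from it.

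Cdh2 gave 6 of them, each with the single library of the H2-Ea-ps class above the others. The level was 95.1 CPM in MC38 anti-CTLA4 14 (others 0.285 to 2.64 CPM), 100.8 CPM in MC38 anti-PD-1 16 (0.424 to 3.17 CPM) and 105.7 CPM in CT26 IgG 27 (0.374 to 4.60 CPM). It was 100.8 CPM in CT26 anti-PD-1 42 (0.286 to 3.21 CPM), 104.5 CPM in PancO2 IgG 54 (0.380 to 3.14 CPM) and 93.6 CPM in PancO2 anti-CTLA4 62 (0.202 to 2.88 CPM).

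The single library of neither labelled PancO2 anti-CTLA4 61 was high in Grhl2, at 1.21 CPM (others 0.0422 to 0.180 CPM), and low in Zeb2, at 165.7 CPM (others 250.03 to 266.7 CPM). Epcam was high at 4.38 CPM in PancO2 IgG 48, the only library of the Cp class in its group (others 0.0711 to 0.253 CPM), and at 8.63 CPM in PancO2 anti-PD-1 71 (others 0.216 to 1.399 CPM).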

How the results depend on the processing

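No paired analysis was possible because each number in the sample titles occurs in 1 library and links no groups. The members called stayed at 0 in all 9 label comparisons and the 6 interactions under every alternative run. Counts over all genes moved there from 0 to 3 with DESeq2 for PancO2 against MC38 and for CT26 against MC38, and, in libraries labelled PancO2, to 9 for anti-CTLA4 and to 6 for anti-PD-1, all lower with the antibody, while an edgeR fit of all 36 libraries called 49 for anti-PD-1, all higher. Summed over the 6 interactions, 0 to 61 genes were called when 1 library was left out, with 14, 18 and 61 without PancO2 anti-PD-1 64, 68 and 70.

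Members called with fibroblast markers were 1, 2 without PancO2 anti-PD-1 71, 0 with the mean of log2 markers, 0 in neither or the H2-Ea-ps class alone and 2 in the Cp class alone. With endothelial markers they were 2, 1 without that library, 0 in neither, 1 in the H2-Ea-ps class and 1 in the Cp class. With keratinocyte markers they were 4, 0 without that library, 2 with limma-voom, 2 with the mean of log2 markers, 0 in neither, 0 in the Cp class and 6 (5 up, 1 down) in the H2-Ea-ps class. On Zeb1 they were 2, 1 with no filter, 1 with fibroblast and endothelial terms and 1 with these and without the library. In neither alone they were 2 (1 up, 1 down), and in the H2-Ea-ps or the Cp class alone 0. These counts of members are to be read beside those over all genes in the next paragraph. Members without overlap between neither and the Cp class went from 3 to 5 without the libraries of Krt14 above 1 CPM.

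Over all genes, fibroblast slopes called 560, and 1257 without PancO2 anti-PD-1 71 and 274 with the mean of log2 markers. In neither, the H2-Ea-ps and the Cp class alone they called 145, 4 and 741. Macrophage slopes called 376, and 763 without the library, 211 with no filter, 53 in neither, 0 in the H2-Ea-ps class and 2 in the Cp class. Endothelial slopes called 2218, and 2499 without the library, and 0, 1448 and 1368 in neither, the H2-Ea-ps and the Cp class. Keratinocyte slopes called 1313, and 62 without the library, 4468 with no filter, 142 with limma-voom, 123 with the mean of log2 markers, and 42, 8060 and 108 in neither, the H2-Ea-ps and the Cp class, the 8060 in the class that holds the library. Slopes on Zeb1 called 1380, and 2600 without the library, 792 with no filter, 388 with both terms and 817 with both terms and without the library. In neither, the H2-Ea-ps and the Cp class alone they called 1226, 0 and 2501. A class alone has 12 libraries in place of 36. The cause of the other changes was not tested. Epcam and Grhl2, at 0 to 156 and 0 to 50 counts per library, are limited by depth.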

Other observations

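Inside the classes, transcription factors outside the 10 genes also ran with Zeb1, in fits whose covariate was chosen after the values were seen. Klf4, a factor of epithelial cells, fell with Zeb1 by 1.68 on the log2 scale (slope -1.68, SE 0.26), and Foxc2 fell by 1.23 (slope -1.23, SE 0.23). Sox4 rose by 0.99 (SE 0.25) and Tcf4 by 0.78 (SE 0.11). The same 4 genes passed in the same directions with fibroblast markers (Klf4 -0.88, Foxc2 -0.76, Sox4 0.74, Tcf4 0.39) and with endothelial markers (-0.86, -0.71, 0.59 and 0.38). These covariates moved together in the same libraries, so the fits are not independent of each other.

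Of the signalling genes Tgfbr2, a TGF-beta receptor gene, rose with Zeb1 (0.68, SE 0.16), with fibroblast markers (0.49, SE 0.11) and with endothelial markers (0.55, SE 0.09), and Smad7, an inhibitor of the same pathway, fell with Zeb1 (slope -0.79, SE 0.22) and with endothelial markers (slope -0.59, SE 0.14). In PancO2 anti-PD-1 71, Krt8 was 5.71 CPM against at most 1.22 CPM in the other 11 libraries of its class and Cdh3 4.95 CPM against at most 0.904 CPM, while Jup was 18.01 CPM against at least 23.8 CPM.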
